A study of Homo sapiens with 4 samples.

Results

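The Fc receptor genes described here were 10 of the 60662 genes in the table deposited for NB4 cells, taken by gene name: FCGR1A, FCGR1B, FCGR2A, FCGR2B, FCGR2C, FCGR3A, FCGR3B, FCAR, FCER1G and FCGRT. All 10 had a row in the table. Of these, 8 passed edgeR's filter on low counts and were tested together with the rest of 15246 genes, and the other 2, FCGR3A and FCGR3B, were at 0 in every library. NB4 is a human acute promyelocytic leukemia (M3/APL) line that carries the PML-RARα fusion. Its cells received either the empty lentiviral vector pLVX-IRES-GFP (Vector) or the same vector carrying JMJD3 (JMJD3), the H3K27 demethylase encoded by KDM6B, and GFP+ cells were sorted, so that both groups share transduction, GFP and the sort. Poly(A) RNA of 2 libraries per group was sequenced, and the question the comparison addresses is which genes differ in level when JMJD3 is raised. The total of estimated counts was 39078443 for Vector replicate 1, 40768225 for Vector replicate 2, 35176388 for JMJD3 replicate 1 and 34704909 for JMJD3 replicate 2. These counts are not raw reads. Of the nonzero values up to 1000 reads, 93.1% were whole multiples of 1 value per library, 1.14 and 1.05 in the Vector libraries and 0.993 and 0.829 in the JMJD3 libraries, so that a count is mostly a number of reads times a scaling of its library. Counts given below are the deposited ones, rounded. The main edgeR fit used them. A fit of the reads recovered by dividing each count by that value, added after the data were seen, kept direction and call for the 8 tested Fc receptor genes and for every other gene whose settings were compared, and called 3304 of 15243 genes higher and 2915 lower. Whether replicates were separate cultures is not stated, so p-values measure only the spread between these libraries, which may be technical.

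Fc receptors bind the constant region of antibodies and link them to myeloid and lymphoid cells. FCGR1A (CD64) binds IgG with high affinity and, like FCGR3A and the IgA receptor FCAR, signals through the common γ chain encoded by FCER1G, which carries an activating ITAM phosphorylated by SRC-family kinases and read by SYK. FCGR2A and FCGR2C hold an ITAM in their own tail, FCGR2B holds an inhibitory ITIM that recruits the phosphatase INPP5D (SHIP1), FCGR3B is anchored by a lipid and has no tail, and FCGRT (FcRn) pairs with B2M to carry and recycle IgG inside cells. In granulocyte development, CD64 is found early, and FCGR3B marks late neutrophils.

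KDM6B was measured first as a check on the labels. It had 584 and 524 estimated counts in the Vector libraries and 1402 and 1635 in the JMJD3 libraries. Both JMJD3 libraries were above both Vector libraries, by a log2 fold change of 1.48 (standard error, SE, 0.13, adjusted p = 0.00114 in the quasi-likelihood test of edgeR). As a check on the cell type, MPO, the myeloperoxidase of promyelocyte granules, was the most abundant gene of the promyelocyte list, with 13880 and 14110 CPM (counts scaled to library size by TMM) in Vector cells and 9379 and 9421 CPM in JMJD3 cells, while ELANE, another granule protease gene, had 1 to 13 counts and KIT 2 to 8.

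On the FPKM scale, which allows for gene length and so lets genes be set side by side, the most abundant Fc receptor gene was FCER1G in Vector cells (33.1 ± 2.27, SD, n = 2) and FCGR1A in JMJD3 cells (22.8 ± 0.296, SD, n = 2). The order in Vector cells ran from FCER1G through FCGR1A, FCGR2A, FCGR1B, FCGRT, FCAR and FCGR2B to FCGR2C. In JMJD3 cells FCER1G and FCGR1A changed places, and FCGR2B and FCGR2C stood above FCAR. The place of FCGR1A rests on how reads of sequence shared with its copy FCGR1B were treated, since the 2 together, at 31.9 and 38.6 FPKM in Vector cells and 34.7 and 35.4 FPKM in JMJD3 cells, exceeded FCER1G in each of the 4 libraries. Neighbours in either order did not overlap between libraries, except FCAR and FCGR2B in Vector cells and the pair at 0. The 4 highest genes lay between 9.65 and 34.7 FPKM in every library, whereas FCGR2B, FCGR2C and FCAR stayed between 0.173 and 1.73 FPKM.

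**Figure D1:**
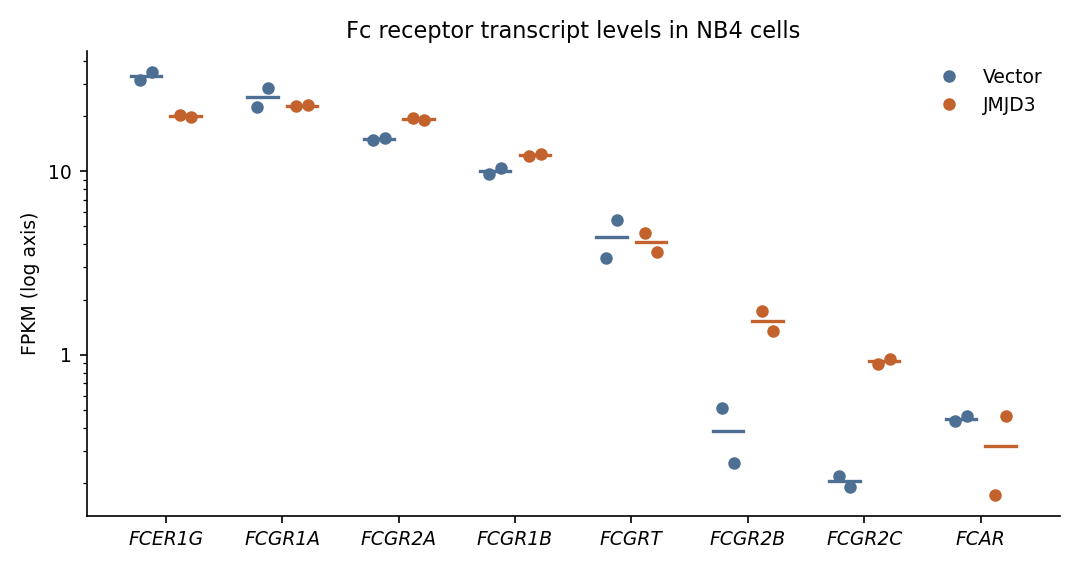
Deposited FPKM (log axis) of the 8 Fc receptor genes with reads in each of the 2 Vector and 2 JMJD3 libraries, with points for libraries and lines for group means. FCGR3A and FCGR3B are at 0 and are not drawn. FCGR2B and FCGR2C are higher and FCER1G is lower in both JMJD3 libraries, with no overlap between the groups.

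Of the 8 genes tested, 3 were higher in JMJD3 cells at an adjusted p under 0.05 from edgeR's quasi-likelihood test, FCGR2A, FCGR2B and FCGR2C, against 21.6% of all genes tested, and 1 was lower, FCER1G, against 19.1% of all genes tested. With a change of at least 2-fold required as well, 2 were higher, FCGR2B and FCGR2C, against 7.55% of all genes tested. None of the 8 was lower by at least 2-fold, against 2.82% of all genes tested, since FCER1G, the single gene called lower by edgeR, by the DESeq2 Wald test or by limma, changed by less. The 3 higher genes are paralogs that share sequence, so they are not 3 separate observations. When the rows of each paralog family were summed before the fit, the count of higher entries was 1, the FCGR2 sum.

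**Figure D2:**
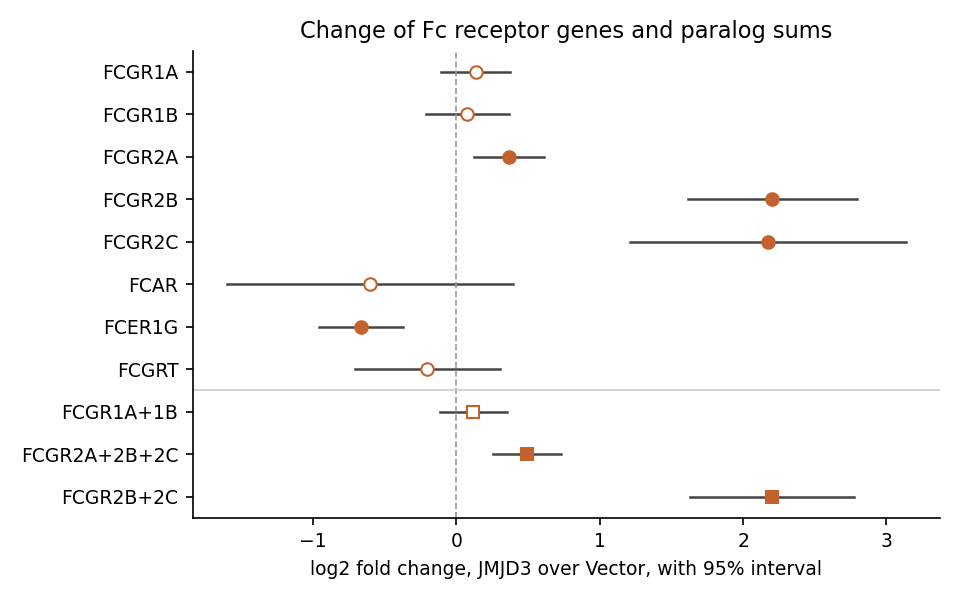
Log2 fold change (JMJD3 over Vector, horizontal axis) of the 8 tested Fc receptor genes (circles) and of 3 paralog sums (squares), with the 95% interval from edgeR's quasi-likelihood fit. Filled symbols passed an adjusted p of 0.05, and FCGR2B, FCGR2C and their sum lie near 2.2.

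Promoter sequences are shown for the genes whose levels differ most in behaviour, FCGR2B and FCGR2A, which were higher, FCER1G, which was lower, and FCGR1A, which passed no test. They are the 250 bases before the start of the gene from RefSeq (GRCh38.p14), all on the + strand and written 5′ to 3′. Of the 10 genes, 7 matched the table of promoters, all but FCGR1B, FCGR2C and FCAR. Capitals mark matches, on either strand, to the core bound by PU.1 (GAGGAA), to a core of C/EBP sites (TTNNGNAA) and to the interferon-γ activated site bound by STAT proteins (TTCNNNGAA). The windows are chr1:161662893-161663142 for FCGR2B, chr1:161505207-161505456 for FCGR2A, chr1:149782444-149782693 for FCGR1A and chr1:161215045-161215294 for FCER1G.
FCGR2B: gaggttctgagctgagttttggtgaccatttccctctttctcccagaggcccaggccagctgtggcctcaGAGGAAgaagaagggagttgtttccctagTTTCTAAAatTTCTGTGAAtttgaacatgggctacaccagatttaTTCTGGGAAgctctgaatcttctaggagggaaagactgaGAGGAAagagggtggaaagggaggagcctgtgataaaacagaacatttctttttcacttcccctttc
FCGR2A: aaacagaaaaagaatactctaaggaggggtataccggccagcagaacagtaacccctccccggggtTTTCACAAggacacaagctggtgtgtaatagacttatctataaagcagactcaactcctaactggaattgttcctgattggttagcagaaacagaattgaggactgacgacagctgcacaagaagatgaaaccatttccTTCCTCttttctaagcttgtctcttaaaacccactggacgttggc
FCGR1A: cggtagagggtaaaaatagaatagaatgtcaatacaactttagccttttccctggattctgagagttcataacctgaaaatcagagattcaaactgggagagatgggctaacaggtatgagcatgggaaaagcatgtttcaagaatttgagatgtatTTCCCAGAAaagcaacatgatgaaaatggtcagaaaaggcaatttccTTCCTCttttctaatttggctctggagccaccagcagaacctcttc
FCER1G: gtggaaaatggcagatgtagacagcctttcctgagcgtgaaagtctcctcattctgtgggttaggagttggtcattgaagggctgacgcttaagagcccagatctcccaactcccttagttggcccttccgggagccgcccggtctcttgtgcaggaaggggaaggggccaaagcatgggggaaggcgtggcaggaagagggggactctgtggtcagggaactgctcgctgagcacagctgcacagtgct
Over all 35116 promoter windows of this length, 23.6% held the PU.1 core, 33.2% the C/EBP core and 6.57% the interferon-γ activated site. The FCGR2B window held 2 matches to the PU.1 core, 1 to the C/EBP core and 2 to the interferon-γ activated site, none of which overlapped another. A further FCGR2B window in the table, chr1:161646993-161647242, held no match to any of the 3. The PU.1 matches of FCGR1A, at base 205 of its window, and FCGR2A, at base 206, lay within a run of 20 bases that both windows share, ATTTCCTTCCTCTTTTCTAA. FCGR1A also held 1 match to the interferon-γ activated site, TTCCCAGAA, and FCGR2A 1 match to the C/EBP core. The FCER1G window held none of these letters. Among the genes not shown, the C/EBP core also occurred in windows of FCGRT, which was not called in the main fit. It occurred as well in windows of FCGR3A and FCGR3B, which were at 0 in every library. A match describes the sequence, and binding was not measured.

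FCGR2A, FCGR2C and FCGR2B lie in this order on the + strand of chromosome 1 between bases 161475220 and 161648444 of GRCh37, with FCGR3A and FCGR3B between them on the other strand. FCGR2B (ENSG00000072694), the inhibitory IgG receptor, had 22 and 17 counts in Vector cells and 94 and 84 counts in JMJD3 cells. FCGR2C (ENSG00000244682) had 9 and 5 counts in Vector cells and 35 and 28 counts in JMJD3 cells. In counts each JMJD3 library was at least 3 times as high as either Vector library for both genes, and in FPKM at least 2 times, although all libraries held few reads of them. The log2 fold change was 2.20 for FCGR2B (SE 0.25, adjusted p = 0.00199 in the quasi-likelihood test of edgeR), a 4.61-fold rise with a 95% interval of 1.62 to 2.79 on the log2 scale. For FCGR2C it was 2.17 (SE 0.40, adjusted p = 0.00779 in the quasi-likelihood test of edgeR). Both calls were kept by edgeR with each library left out in turn, with log2 fold changes from 2.01 to 2.38 for FCGR2B and an adjusted p of at most 0.0196 for FCGR2C. On log2(FPKM + 1), which understates the change of low genes, limma gave 0.87 for FCGR2B and 0.67 for FCGR2C.

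FCGR2A (ENSG00000143226), the activating IgG receptor with its own ITAM, was more abundant, with 671 and 752 counts in Vector cells and 898 and 905 in JMJD3 cells. In FPKM it was at 14.9 and 15.1 in Vector cells and 19.4 and 19.1 in JMJD3 cells. The groups did not overlap on either scale, and the difference was small beside that of FCGR2B, a log2 fold change of 0.36 (SE 0.10, adjusted p = 0.0301 in the quasi-likelihood test of edgeR). This call depended on the processing. It was lost with the DESeq2 Wald test (adjusted p = 0.0775), with limma on log2(FPKM + 1) (adjusted p = 0.0584) and log2(FPKM + 0.1) (adjusted p = 0.0544), with no filter on low counts in edgeR (adjusted p = 0.0683), and in edgeR fits without JMJD3 replicate 1 (adjusted p = 0.235) or JMJD3 replicate 2 (adjusted p = 0.274). With the replicate number as a block, edgeR gave an adjusted p of 0.0763, and over all its alternatives the value ran from 0.00815 to 0.274.

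Relative to the activating receptor FCGR2A, the inhibitory receptor FCGR2B was higher in JMJD3 cells. The FPKM of FCGR2B was 3.46% and 1.71% of that of FCGR2A in the Vector libraries and 8.93% and 7.05% in the JMJD3 libraries. Both JMJD3 values exceeded both Vector values, and FCGR2A remained the main FCGR2 transcript in each library. As a share of all FCGR2 reads, recovered as above (19 and 16 for FCGR2B in Vector cells, 95 and 101 in JMJD3 cells), FCGR2B took 3.09% (95% exact binomial interval 1.87% to 4.79%) and 2.17% (1.24% to 3.49%) in Vector cells, and 9.18% (7.49% to 11.1%) and 8.23% (6.75% to 9.91%) in JMJD3 cells. FCGR2C took 1.30% and 0.677% in Vector cells and 3.38% and 2.77% in JMJD3 cells. The intervals, which cover counting error alone, did not overlap between groups for FCGR2B, but for FCGR2C that of Vector library 1 (0.564% to 2.55%) reached into those of the JMJD3 libraries (from 2.37% and 1.93%).

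**Figure D3:**
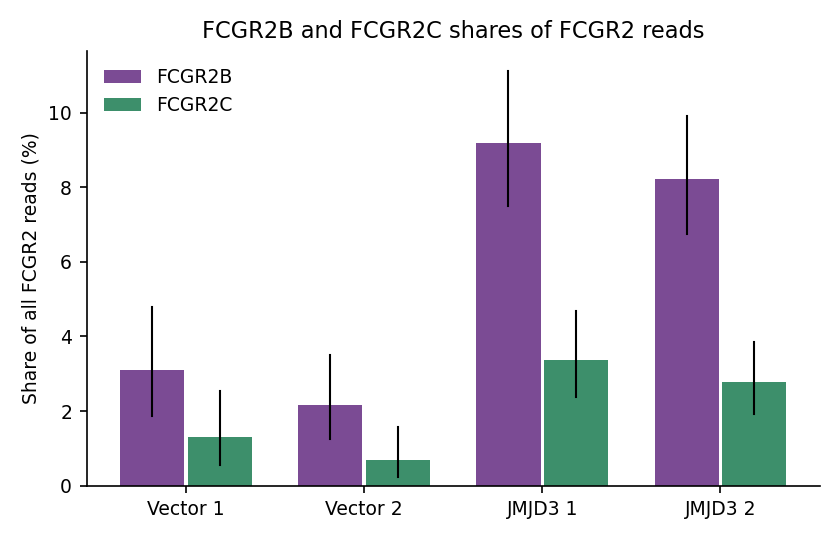
Share of the summed reads, recovered from the deposited counts, of FCGR2A, FCGR2B and FCGR2C (vertical axis, %) that fell to FCGR2B and FCGR2C in each library, with 95% exact binomial intervals as lines. FCGR2B rises from 2.17% to 3.09% in Vector cells to 8.23% to 9.18% in JMJD3 cells.

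Read sharing limits how far these 3 genes can be told apart. Of the distinct 75-base windows within annotated exons of FCGR2C, 26.6% occurred unchanged at the FCGR2B locus and 15.2% at the FCGR2A locus in GRCh37. Of those of FCGR2B, 26.4% occurred at the FCGR2C locus and 1.77% at that of FCGR2A. Of those of FCGR2A, 20.9% occurred at the FCGR2C locus and 1.94% at that of FCGR2B. FCGR2C thus shares unchanged windows of this length with both other genes, which share few with each other. Windows that differ by a few bases were not counted, so similarity with mismatches was not measured. A shared window mostly fits FCGR2C and 1 of them, but some fit FCGR2A and FCGR2B alone or all 3 genes. The counts of FCGR2B and FCGR2C were whole multiples in each of the 4 libraries, so no division of single reads between them shows in the values. Those of FCGR2A were not in the JMJD3 libraries, at 904.961 and 1091.932 recovered reads. RP11-25K21.6, whose interval overlaps FCGR2A, FCGR3A and FCGR2C, held 1.0307 and 1.7136 estimated counts in the JMJD3 libraries. The methods speak of keeping reads with a unique place alone. Whether reads of shared sequence were left out, divided or given whole to 1 gene was not tested. The methods give paired reads of 150 bases, and windows of that length, added after the data were seen, shared less. Of those of FCGR2C, 13.3% occurred at the FCGR2B locus and 1.10% at that of FCGR2A, of those of FCGR2B, 15.9% occurred at the FCGR2C locus, and of those of FCGR2A, 5.29%. Noncoding genes whose intervals overlap FCGR2A and FCGR2C (RP11-25K21.6, 0 to 2 counts) and FCGR2B (RP11-25K21.1, 0 counts) held almost no reads. The rows of FCGR2B and FCGR2C were summed so that a read given to the wrong 1 of the 2 would not matter, an alternative chosen after the data were seen. FCGR2B plus FCGR2C had 31 and 22 counts in Vector cells and 129 and 112 counts in JMJD3 cells, giving a log2 fold change of 2.20 (SE 0.24, adjusted p = 0.00190 in the quasi-likelihood test of edgeR). The rise of the pair is therefore independent of which of the 2 a read was given to, but not of reads exchanged between FCGR2A and either of them. The sum of all 3 genes had 702 and 774 counts in Vector cells and 1027 and 1017 counts in JMJD3 cells. Its log2 fold change was 0.49 (SE 0.10, adjusted p = 0.0105 in the quasi-likelihood test of edgeR), and 0.49 and 0.50 without JMJD3 replicate 1 or 2, where the call was lost (adjusted p = 0.104 and 0.102 from edgeR).

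FCER1G (ENSG00000158869), the γ chain through which FCGR1A, FCGR3A and FCAR signal, spans bases 161185024 to 161190489 of chromosome 1 in GRCh37. Its estimated counts were 366 and 408 in Vector cells and 247 and 233 in JMJD3 cells. In FPKM it was at 31.5 and 34.7 in Vector cells and 20.3 and 19.6 in JMJD3 cells. Both JMJD3 libraries lay below both Vector libraries on either scale, and the log2 fold change was -0.67 (SE 0.12, adjusted p = 0.00747 in the quasi-likelihood test of edgeR). Without JMJD3 replicate 2 it was -0.62 and the call was lost (adjusted p = 0.0629 from edgeR, the highest over its alternatives, which began at 0.000236). The direction of FCER1G was thus opposite to that of the FCGR2 genes.

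The other adaptor chains did not follow FCER1G. TYROBP (DAP12), another ITAM chain, had 370 and 454 counts in Vector cells and 449 and 365 counts in JMJD3 cells, so that the groups overlapped, and its log2 fold change was 0.01 with a 95% interval of -0.35 to 0.37. HCST (DAP10), whose tail holds a PI3-kinase binding motif in place of an ITAM, had 184 and 275 counts in Vector cells and 508 and 484 counts in JMJD3 cells. It rose by a log2 fold change of 1.14 (SE 0.18, adjusted p = 0.00493 in the quasi-likelihood test of edgeR). CD247, the ζ chain of T and NK cells, had 0 to 2 counts. Of the 4 chains listed, 3 were tested, 1 rose and 1 fell (against 21.6% higher and 19.1% lower over all genes tested), with a median log2 fold change of 0.01 against 0.04 over all genes tested.

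The level of the γ chain relative to its receptor changed accordingly. The FPKM of FCER1G was 1.42 and 1.23 times that of FCGR1A in the Vector libraries and 0.899 and 0.853 times that of FCGR1A in the JMJD3 libraries. Against FCGR2A the same ratio was 2.12 and 2.29 in Vector cells and 1.05 and 1.03 in JMJD3 cells. For both ratios the groups did not overlap, although the first rests on how reads shared by FCGR1A and FCGR1B were treated. TYROBP, at 1.07 and 1.19 times the FPKM of FCER1G in Vector cells, stood at 2.00 and 1.69 times in JMJD3 cells, and HCST at 59.2% and 76.9% of it in Vector cells and at 244% and 240% in JMJD3 cells.

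FCGR1A (ENSG00000150337), the high-affinity IgG receptor, spans bases 149754227 to 149763231 of chromosome 1 in GRCh37. Its estimated counts were 786 and 797 in Vector cells and 887 and 823 in JMJD3 cells, and its levels 22.3 and 28.3 against 22.6 and 23.0 FPKM. The groups overlapped in FPKM but not in counts scaled to library size, and the direction differed between the scales. The log2 fold change was 0.13 in counts (95% interval -0.11 to 0.37, adjusted p = 0.324 in the quasi-likelihood test of edgeR) and -0.13 on log2(FPKM + 1) (adjusted p = 0.481 from limma, with 0.221 to 0.837 over all its alternatives). The estimated counts per unit of FPKM, which depend on the library's size and scaling and on the transcript length used, were 35.3 and 28.2 for FCGR1A in Vector cells and 39.3 and 35.8 in JMJD3 cells. Over the 4 libraries they ranged between 45.1 and 49.7 for FCGR2A, less than for FCGR1A, but between 42.2 and 64.8 for FCGR2B and between 27.4 and 41.8 for FCGR2C, so that FPKM ratios of these 2 genes carry this spread too.

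FCGR1B (ENSG00000198019), a copy of FCGR1A that GENCODE lists as a transcribed pseudogene, had 311 and 295 counts in Vector cells and 305 and 325 counts in JMJD3 cells. The groups overlapped in counts scaled to library size, and the log2 fold change was 0.08 with a 95% interval of -0.21 to 0.37. In FPKM they did not overlap (9.65 and 10.4 against 12.1 and 12.4), with 0.27 on log2(FPKM + 1) (adjusted p = 0.136 from limma), a direction opposite to that of FCGR1A on the same scale. Of the 75-base windows within exons of FCGR1A, 64.0% occurred unchanged at the FCGR1B locus, and 83.1% at that locus or the locus of FCGR1C, a further pseudogene outside the 10 genes. With windows of 150 bases these shares were 40.0% and 60.1%. By unchanged windows alone, reads can thus be told apart less well between these copies than between FCGR2A and FCGR2B. FCGR1A took between 71.7% and 74.4% of the summed FCGR1A and FCGR1B reads, recovered as above, in the 4 libraries, with exact binomial intervals that overlapped between all of them. The sum had 1097 and 1092 counts in Vector cells and 1192 and 1148 counts in JMJD3 cells, giving a log2 fold change of 0.12 (95% interval -0.11 to 0.35), which was 0.15 with FCGR1C added and 0.00 to 2 decimals on either FPKM scale. Rises above 0.35 and falls beyond 0.11 on the log2 scale thus lay outside the interval of the fit to FCGR1A plus FCGR1B counts.

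FCGR3A (ENSG00000203747) and FCGR3B (ENSG00000162747), the low-affinity receptors of NK cells, macrophages and neutrophils, had 0 counts in each of the 4 libraries. A value of 0 allows up to 3 reads, or between 0.0671 and 0.0925 CPM in these libraries, a limit that covers counting error alone. As both copies were at 0, no read was given to the wrong copy. Whether reads of shared sequence (24.3% of 75-base FCGR3A windows occur at FCGR3B) were left out of both was not tested. No fold change was computed for them.

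FCAR (ENSG00000186431), the IgA receptor, spans bases 55385691 to 55402786 of chromosome 19 in GRCh37. Its estimated counts were 13 and 18 in Vector cells and 8 and 12 in JMJD3 cells. The values were low in all libraries, with a log2 fold change of -0.60 and a 95% interval from -1.60 to 0.39, and CTB-61M7.2, which overlaps its end, had 3 to 9 counts, so that neither a fall of 2-fold nor the absence of a change could be told at this depth. FCGRT (ENSG00000104870), the neonatal Fc receptor, spans bases 50010073 to 50029685 of chromosome 19 in GRCh37. Its estimated counts were 149 and 230 in Vector cells and 170 and 154 in JMJD3 cells. The Vector libraries lay on both sides of the JMJD3 libraries, and the log2 fold change of -0.20 (95% interval -0.71 to 0.30) rested on which Vector library was used. It was -0.50 without Vector replicate 1 (adjusted p = 0.0297 from edgeR) and 0.12 without Vector replicate 2 (adjusted p = 0.529 from edgeR), and over all its alternatives the adjusted p ran from 0.0297 to 0.876. B2M, the light chain that FCGRT needs, had 60506 and 62791 counts in Vector cells and 85003 and 78718 counts in JMJD3 cells and rose by a log2 fold change of 0.43 (SE 0.07, adjusted p = 0.00528 in the quasi-likelihood test of edgeR), a call that 5 of 7 other scalings, filters and tests also made.

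**Figure D4:**
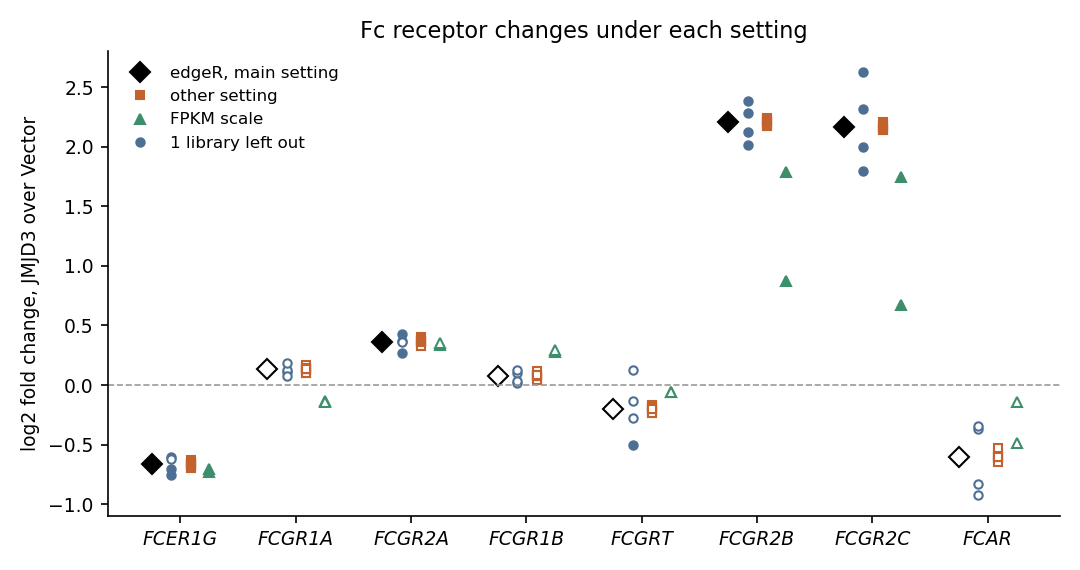
Log2 fold change (JMJD3 over Vector, vertical axis) of the 8 tested Fc receptor genes under each setting, with filled symbols at an adjusted p under 0.05. FCGR2B and FCGR2C stay above 0 and filled in each fit drawn, FCGR1A changes sign on the FPKM scale, and FCGRT changes sign when Vector replicate 2 is left out.

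Downstream of the activating receptors, the list of 29 signalling kinases and adaptors had 28 tested genes, of which 8 rose and 6 fell (adjusted p under 0.05 from edgeR's quasi-likelihood test), against 21.6% higher and 19.1% lower over all genes tested, with a median log2 fold change of 0.08 against 0.04 over all genes tested. SYK, the kinase that reads the ITAM of FCER1G and FCGR2A, had 5998 and 6049 counts in Vector cells and 6986 and 7157 counts in JMJD3 cells, giving a log2 fold change of 0.25. LYN, a SRC-family kinase that phosphorylates these ITAMs, had 2945 and 2821 counts in Vector cells and 2388 and 2315 counts in JMJD3 cells, giving a log2 fold change of -0.27. SYK and LYN thus moved in opposite directions by small amounts, and edgeR lost both calls without either JMJD3 library (adjusted p up to 0.387 for SYK and 0.433 for LYN) and with the replicate number as a block (0.152 and 0.166).
Among the called genes, the 4 largest rises were those of the adaptors LAT (log2 fold change 0.77) and GAB2 (0.70), the ubiquitin ligase CBL (0.57) and the adaptor LCP2 (0.41). The 4 largest falls were those of the kinase FYN (log2 fold change -0.98), phospholipase PLCG1 (-0.78), the GTPase RAC1 (-0.60) and the kinase PRKCD (-0.51). Of the 14 calls in this list, 4 were kept by edgeR in each fit with 1 library left out. Among the genes named here these were LAT, GAB2, PLCG1 and RAC1, while CBL was lost without Vector replicate 2 (log2 fold change 0.33) or JMJD3 replicate 2 (0.47, adjusted p up to 0.106 from edgeR), LCP2 without either JMJD3 library (up to 0.182), FYN without JMJD3 replicate 1 (0.0732) and PRKCD without JMJD3 replicate 2 (0.0527). Over 7 other scalings, filters and tests, PLCG1, RAC1 and PRKCD passed in all 7, LAT and LCP2 in 6, GAB2 in 5, CBL and FYN in 4, and SYK and LYN in 2.

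The inhibitory arm, which acts beside or below FCGR2B, had 9 tested genes of 9 listed, of which 3 rose and 2 fell (against 21.6% higher and 19.1% lower over all genes tested), with a median log2 fold change of 0.21 against 0.04 over all genes tested. INPP5D, the phosphatase recruited by the ITIM of FCGR2B, had 9133 and 9254 counts in Vector cells and 12089 and 12466 counts in JMJD3 cells. Both JMJD3 libraries were above both Vector libraries, by a log2 fold change of 0.44 (SE 0.07, adjusted p = 0.00523 in the quasi-likelihood test of edgeR), a call lost without JMJD3 replicate 2 (adjusted p = 0.0715 from edgeR, the highest over its alternatives). The ubiquitin ligase CBLB (log2 fold change 1.46) and the adaptor DOK2 (1.12) also rose. DOK2, with 27 and 55 counts in Vector cells and 84 and 91 in JMJD3 cells, was at 0.67 without Vector replicate 1 and 1.70 without Vector replicate 2. CSK, the kinase that holds SRC-family kinases inactive, had 6824 and 7751 counts in Vector cells and 3781 and 3738 counts in JMJD3 cells, giving a log2 fold change of -0.93 (SE 0.09, adjusted p = 0.00123 in the quasi-likelihood test of edgeR). INPPL1 (SHIP2), a relative of INPP5D, fell by 0.42 on the log2 scale, a call lost by edgeR without either JMJD3 library (adjusted p up to 0.102). Over the same 7 alternatives CBLB, CSK, INPP5D and INPPL1 passed in all 7 and DOK2 in 5. PTPN6 (SHP-1) had a log2 fold change of 0.01 (95% interval -0.20 to 0.22).

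**Figure D5:**
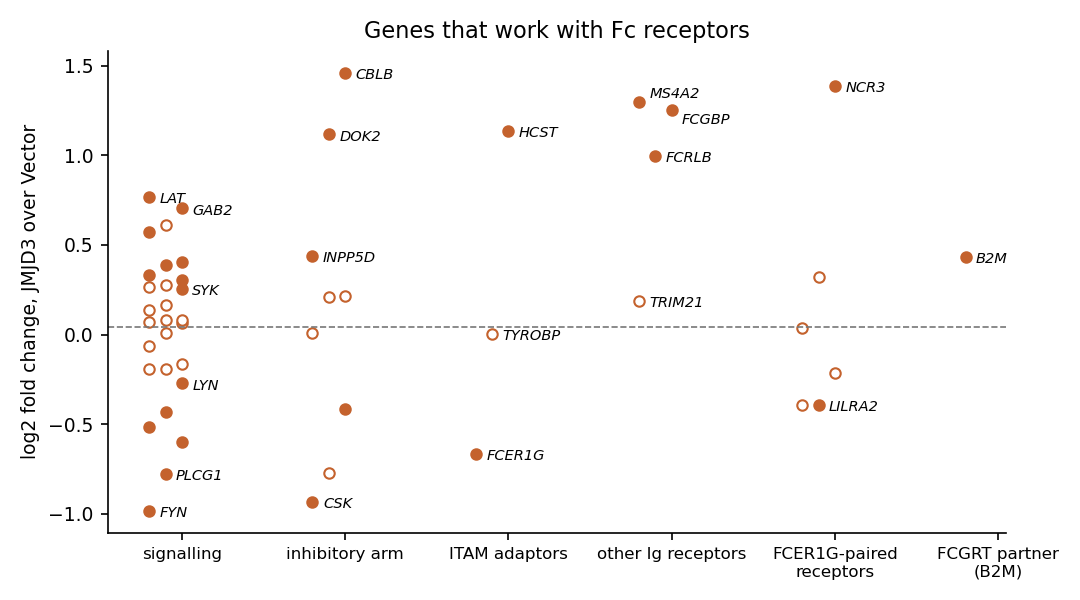
Log2 fold change (JMJD3 over Vector, vertical axis) of each tested gene in 6 lists of genes that work with Fc receptors, with filled points at an adjusted p under 0.05 from edgeR and a dashed line at the median of all tested genes, 0.04. The signalling list holds rises and falls in similar number, while FCER1G lies below and HCST above 0 among the adaptors.

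Among 16 other receptors for immunoglobulin and Fc receptor-like genes, 4 were tested, of which 3 rose and 0 fell (against 21.6% higher and 19.1% lower over all genes tested), and 8 were at 0 in all libraries, FCER1A, FCER2 and FCRL1 to FCRL6. The median log2 fold change of the 4 was 1.13 against 0.04 over all genes tested. MS4A2, the β chain of the high-affinity IgE receptor, had 101 and 94 counts in Vector cells and 238 and 235 counts in JMJD3 cells, giving a log2 fold change of 1.30 (SE 0.14, adjusted p = 0.00198 in the quasi-likelihood test of edgeR). It thus rose while FCER1G, the γ chain of the same receptor, fell and FCER1A, its IgE-binding α chain, had no counts. FCGBP, a mucus protein that binds IgG Fc, and FCRLB rose by log2 fold changes of 1.25 and 1.00, FCGBP in 5 of the 7 alternatives and FCRLB in all 7. TRIM21, the cytosolic antibody receptor, was the most abundant gene of the list and had a log2 fold change of 0.19 (95% interval -0.07 to 0.44).
Of 13 other receptors that pair with the FCER1G chain, 6 were tested, 1 rose, 1 fell (against 21.6% higher and 19.1% lower over all genes tested) and the median log2 fold change was -0.09. The natural cytotoxicity receptor NCR3 had 55 and 59 counts in Vector cells and 148 and 146 counts in JMJD3 cells, giving a log2 fold change of 1.39. LILRA2, the most abundant of them, had 998 and 1032 counts in Vector cells and 766 and 758 counts in JMJD3 cells, giving a log2 fold change of -0.39, a call lost by edgeR without either JMJD3 library (adjusted p up to 0.253) and with the replicate number as a block (0.0571). CEBPB, a transcription factor of myeloid maturation, had 464 and 478 counts in Vector cells and 809 and 645 counts in JMJD3 cells, giving a log2 fold change of 0.65 (adjusted p = 0.0114 in the quasi-likelihood test of edgeR), and 0.48 without JMJD3 replicate 1 (adjusted p = 0.123 from edgeR, the highest over its alternatives).

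FCGR2B is also a receptor of B cells, monocytes, basophils and mast cells, so marker lists of other cell types were measured beside it, in summed CPM, where calls are to be set against 21.6% higher and 19.1% lower over all genes tested. In bulk RNA, a change in the number of cells of a type and a change in RNA per cell cannot be told apart. All 3 tested genes of 5 mast cell and basophil markers rose, TPSAB1, TPSB2 and MS4A2. The sums of the list were 4.18 and 3.96 CPM in Vector cells and 13.3 and 12.4 CPM in JMJD3 cells. TPSAB1 and TPSB2 are both tryptase genes, and whether they share reads was not tested, so they may not be separate observations. The most abundant gene of the list was MS4A2, FCER1A was at 0, and CPA3 had 9 and 9 counts in Vector cells and 0 in both JMJD3 libraries. Of 6 B cell markers, 3 were tested and 1 rose, CD79A, with sums of 26.0 and 30.8 CPM in Vector cells and 36.6 and 32.8 CPM in JMJD3 cells. CD79B was the most abundant of these, while MS4A1 (CD20) was at 0 in all libraries, PAX5 had 0 to 2 counts and CR2 0 to 2. Of 7 monocyte and macrophage markers, 4 were tested and 1 rose, CSF1R, the most abundant, with sums of 8.53 and 6.34 CPM in Vector cells and 15.9 and 16.0 CPM in JMJD3 cells. VSIG4, another tested gene of this list, had 46 and 23 counts in Vector cells and 17 and 19 in JMJD3 cells (log2 fold change -0.92, 95% interval -1.90 to 0.07), with an adjusted p of 0.0164 from edgeR without Vector replicate 2 and 0.439 without Vector replicate 1, while CD14 had 8 to 13 counts and CD163 and MRC1 0 or 1.
Both tested genes of 3 eosinophil markers rose, led by PRG2, with sums of 187 and 213 CPM in Vector cells and 846 and 730 CPM in JMJD3 cells. Of 8 T and NK cell markers, 2 were tested, CD2 rose and NCAM1 fell, the sums were 13.8 and 13.9 CPM in Vector cells and 15.5 and 16.7 CPM in JMJD3 cells, and KLRF1 was at 0. Of 4 platelet markers 1 was tested and rose, ITGA2B, with sums of 0.621 and 0.707 CPM in Vector cells and 1.78 and 1.67 CPM in JMJD3 cells, while PF4 and GP9 were at 0. The 4 erythroid markers were at 0. Of 8 promyelocyte and granulocyte precursor markers 6 were tested, of which 2 rose and 4 fell, with sums, made up mostly of MPO, of 16600 and 17500 CPM in Vector cells and 10600 CPM in both JMJD3 libraries. The log2 fold change of MPO was -0.57, while the granule protease genes CTSG and PRTN3 fell further, by 3.90 and 1.81, and the transcription factor gene CEBPE rose by 0.72, all 3 in each fit with 1 library left out. The part of these changes in those of FCGR2B, FCGR2C and FCER1G was not tested. The labels place Vector library 1 on another sequencing lane (lane 20) than the other 3 libraries (lane 17). Without Vector library 1 the log2 fold change was 2.38 for FCGR2B, 2.63 for FCGR2C and -0.76 for FCER1G.

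Genes of the table within 200 kb of an Fc receptor gene in GRCh37 were compared with the receptors. Of 64 such genes tested, 13 (20.3%) were higher and 14 (21.9%) lower in JMJD3 cells, close to the shares over all genes tested, and their median log2 fold change was 0.04, the same as over all genes tested to 2 decimals. These genes are pooled over all the loci. Of the 5 tested neighbours nearest to FCGR2A, FCGR2B or FCGR2C, 2 were higher, CFAP126 and FCRLB, and 1 was lower. The largest changes among these neighbours were those of CFAP126 (log2 fold change 2.45, on 2 and 3 counts in Vector cells and 11 and 17 in JMJD3 cells), RP11-297K8.2 (-1.10), RCN3 beside FCGRT (1.06) and HIST2H2BF (1.04), whose interval overlaps that of FCGR1A on the other strand, so that without strand reads there could not be told apart. The call of CFAP126 was lost by edgeR without JMJD3 replicate 2 (adjusted p = 0.118). HSPA6, 527 bases from FCGR2A, had 3 to 9 counts, and FCRLB, 42890 bases from FCGR2B, rose as given above, whereas FCRLA, 28318 bases from it, had 0 to 3 counts. HSPA6, FCRLA and the overlapping noncoding genes were named for their position after their values were seen.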

How the data were processed

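Poly(A) RNA of 2 Vector and 2 JMJD3 libraries was analysed from 1 deposited table. For each gene it holds the estimated counts and the FPKM that the authors obtained in every library. The submitters' processing notes name CASAVA 1.8, TopHat2 2.0.4, RSEM, edgeR and GRCh38, whereas the methods name STAR, hg19, HTSeq-count and DESeq2. Of nonzero counts, 97.9% lie more than 0.001 from a whole number. Most of this is scaling by library, since 93.1% of values up to 1000 reads are whole multiples of the commonest nonzero value of their library (within 0.01 reads). Shares and limits use reads recovered by that value, which were also tested with edgeR. This was seen after the tests had been run. Columns of group means and of the authors' fold change, p-value and FDR were not used. Growth medium and RNA kit also differ between labels and methods.

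Counts were rounded, filtered with filterByExpr, TMM-scaled and tested in edgeR 4.0.16 (quasi-likelihood, R 4.3.3) over 15246 of 60662 genes, Benjamini-Hochberg adjusted. A standard error is the log2 fold change divided by the square root of F, without sign. CPM uses TMM-scaled library sizes. The tests were checked on simulated data that gave every gene the same dispersion. Changes were planted only above a mean count that FCAR did not reach, so the check does not cover the lowest genes. Alternatives were DESeq2 1.42.0 size factors and Wald test, upper quartile scaling, no filter, limma 3.58.1 on log2(FPKM + 0.1) or log2(FPKM + 1), at least 10 counts in every library, replicate and crossed blocks, paralog sums and leaving out each library. The members and lists were chosen with earlier results of these data known. Named were all 10 genes, KDM6B, CEBPB, up to 4 rises and 4 falls per list at an adjusted p under 0.05, SYK, LYN, INPP5D, PTPN6, TYROBP, B2M, up to 4 neighbours, and for marker lists the most abundant gene and those at 0. Of the genes so chosen or added, 2 are not reported here. Other marker genes were added after their values were seen. Positions are GRCh37 (GENCODE release 44, matched by gene identifier). Shared windows were 75 or 150 bases within an exon, sought at the paralog with 10 kb on either side.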

Additional observations from a re-analysis of the deposited data

How the results depend on the processing

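Of 154 values of the Fc receptor genes, their sums and KDM6B under alternatives, 138 kept direction and side of the threshold. The count of higher genes was 1 with paralog rows summed, and that of lower genes was 0 with at least 2-fold required. With 1 library left out, where the lone library is assumed to vary like the other group, these counts ranged from 2 to 3 and from 0 to 2, and the FCGR2 sum from 0.41 to 0.55. On log2(FPKM + 1) and log2(FPKM + 0.1), FCGR1A turned to -0.13 and -0.14, the FCGR1 sum to -0.002 on both, and TYROBP to -0.030 and -0.031. With DESeq2 size factors and with the DESeq2 Wald test, PTPN6 turned to -0.024 and TYROBP to -0.029. With 1 library left out, FCGRT ranged from -0.50 to 0.12, CD79B from -0.14 to 0.21, PTPN6 from -0.11 to 0.10 and TYROBP from -0.15 to 0.15. The causes were not tested. With at least 10 counts in every library, FCGR2C and FCAR could not be tested.

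Replicate 1 of both groups deviated with a correlation of -0.146 across genes, so no pairing by number showed. With 2 libraries per group this is a single comparison, and it cannot tell whether the libraries were paired. With the replicate block, 2 Fc receptor genes were higher and 1 lower, KDM6B was at 1.47, the FCGR1 sum at 0.12 and the FCGR2 sum at 0.49. With crossed replicate numbers, and with whole reads recovered, both added after the data were seen, 3 were higher and 1 lower. Over all genes, 3292 were higher and 2906 lower, against 1893 and 1776 with no filter, 3603 and 2458 with upper quartile scaling, 2534 and 2834 with the DESeq2 Wald test, 3096 and 3130 with DESeq2 size factors and 2046 and 2260 with limma on log2(FPKM + 1), and from 1920 to 4343 and from 1133 to 4183 with 1 library left out. Counts were under 100 for FCGR2B, FCGR2C and FCAR.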
